A study of Mus musculus with 15 samples.

Results

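Bnip5, Tifab, Angptl2, Pou2f2, Ptprf and Itga9 are 6 mouse genes whose mRNA was far lower in cells carrying only a mutant G-CSF receptor than in control cells. They were chosen from the counts for that large fall in CSF3R_ONLY against EMPTY, so the fall is a description and carries no test. All 6 were among the 52327 gene entries of the table and all 6 passed the filter on low counts, which kept 13123 genes. The stated rule of choice named only that contrast. It did not name the levels in cells with both alleles, introduced in either order, or in cells with the fusion alone. The genes were chosen with earlier results of these data known, so it cannot be shown that those levels played no part.

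The cells were HoxB, a mouse blood cell line by its labels, and all 5 groups of 3 libraries came from this 1 line. EMPTY cells received control vectors, RUNX1-ETO_ONLY cells the fusion RUNX1-ETO, and CSF3R_ONLY cells the receptor CSF3R-T618I. RUNX1-ETO_FIRST cells carried the fusion followed by the receptor, and CSF3R_FIRST cells the receptor followed by the fusion, as the group names give the order. The labels do not say which promoter drove either allele, how long the cells carried it, or whether replicates were separate cultures, so p-values measure only the spread between these libraries.

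As background, RUNX1-ETO joins the DNA-binding domain of the blood transcription factor RUNX1 to the corepressor ETO and can silence or raise RUNX1 target genes. CSF3R is the receptor for granulocyte colony-stimulating factor, and the change T618I makes it signal through JAK and STAT proteins without ligand. The 6 genes have no shared pathway. Tifab encodes a restraint on the TIFA and TRAF6 branch of innate immune signalling, and Pou2f2 encodes the octamer-binding factor OCT2. Angptl2 encodes a secreted angiopoietin-like protein that binds immune inhibitory receptors. Ptprf encodes the receptor tyrosine phosphatase LAR, and Itga9 the integrin chain alpha 9, which pairs with the beta 1 chain. Bnip5 is named for a BCL2-interacting protein family and its role is little known.

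On GENCODE M21 (mm10), Bnip5, listed there as 4930539E08Rik, lay at chr17:28896392-28915324 and Tifab at chr13:56173704-56178885, both on the minus strand. Angptl2 lay at chr2:33216069-33247717 on the plus strand, Pou2f2 at chr7:25087344-25179726 and Ptprf at chr4:118208213-118291405 on the minus strand, and Itga9 at chr9:118606690-118901003 on the plus strand. Genes on the other strand overlapped some of them, and no source used here gives the strand setting of the counting. Ralgps1 shared no exon base with Angptl2, nor Gm2415 with Itga9, while 1700030A11Rik, which shared 88 exon bases with Bnip5, had 1 count in all 15 libraries.

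RefSeq promoters on GRCm38.p6 were found for all 6 genes. The bases before the start are shown for Bnip5, the gene that differed most between the doubles, for Tifab, which stayed low in both, and for Pou2f2, the 1 gene of the 6 with a motif match. All are read 5′ to 3′ on the minus strand, from chr17:28915325-28915574, chr13:56178886-56179135 and chr7:25132513-25132710. The Pou2f2 stretch ends where an annotated exon begins, and its RefSeq start lies inside the gene as GENCODE gives it. Capitals mark motif matches.
Bnip5: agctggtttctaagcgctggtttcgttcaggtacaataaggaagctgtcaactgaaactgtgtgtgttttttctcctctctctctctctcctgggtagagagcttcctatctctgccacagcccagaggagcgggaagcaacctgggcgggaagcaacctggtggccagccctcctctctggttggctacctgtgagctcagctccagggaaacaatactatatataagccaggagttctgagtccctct
Tifab: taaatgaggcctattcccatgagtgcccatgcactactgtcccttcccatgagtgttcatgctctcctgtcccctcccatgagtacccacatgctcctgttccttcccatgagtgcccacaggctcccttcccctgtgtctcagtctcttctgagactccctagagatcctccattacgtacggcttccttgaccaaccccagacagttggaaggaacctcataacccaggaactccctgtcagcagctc
Pou2f2: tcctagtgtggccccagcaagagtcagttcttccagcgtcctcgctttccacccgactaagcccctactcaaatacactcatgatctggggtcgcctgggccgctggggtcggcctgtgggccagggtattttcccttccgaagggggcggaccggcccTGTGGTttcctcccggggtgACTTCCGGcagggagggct
The 250 bases before each start were searched on both strands for 4 motifs, none overlapping another in these genes. The RUNX core TGTGGT was in 14.0% of 32851 promoters, the STAT palindrome TTCNNNGAA in 7.02%, the octamer ATGCAAAT in 1.60% and the ETS core CCGGAAGT in 2.88%. Pou2f2 held TGTGGT 86 bases before its start and, on the other strand, the ETS core 64 bases before it. The other windows held none of these motifs, which describes the windows only. The RefSeq start used for Itga9 also lies inside the gene, 105002 bases from its GENCODE start. The bases before that GENCODE start were not searched.

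Libraries held 17007437 to 18178292 counts. Levels are CPM, counts divided by the TMM-scaled library size, on a common scale for all libraries. Runx1t1, which encodes the ETO part of the fusion, had no counts in EMPTY and CSF3R_ONLY and averaged 448 ± 61.3, 494 ± 99.3 and 712 ± 135 CPM (SD, n = 3) in RUNX1-ETO_ONLY, RUNX1-ETO_FIRST and CSF3R_FIRST, which matches the labels. Csf3r was read in every group, from 398 ± 32.1 CPM in CSF3R_FIRST to 622 ± 4.597 CPM in CSF3R_ONLY (SD, n = 3), so its count did not tell the introduced receptor from the line's own. EMPTY had 420 ± 46.1, RUNX1-ETO_ONLY 525 ± 15.3 and RUNX1-ETO_FIRST 420 ± 20.1 CPM. The doubles thus stood no higher than groups without the introduced receptor, and this count does not show the receptor in them. All 11 haematopoietic and myeloid markers reached 1 CPM. In 4 libraries, replicate 3 of EMPTY, RUNX1-ETO_ONLY and CSF3R_FIRST and replicate 1 of RUNX1-ETO_FIRST, the deviation from the group mean ran against exon length across 12820 genes (Pearson r from -0.478 to -0.273). EMPTY replicate 3 stood furthest apart, with a chi-square per degree of freedom of 69.2 and 74.7 against its replicates, which gave 4.16 between themselves. Results are given without these libraries where that changed them.

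**Figure D1:**
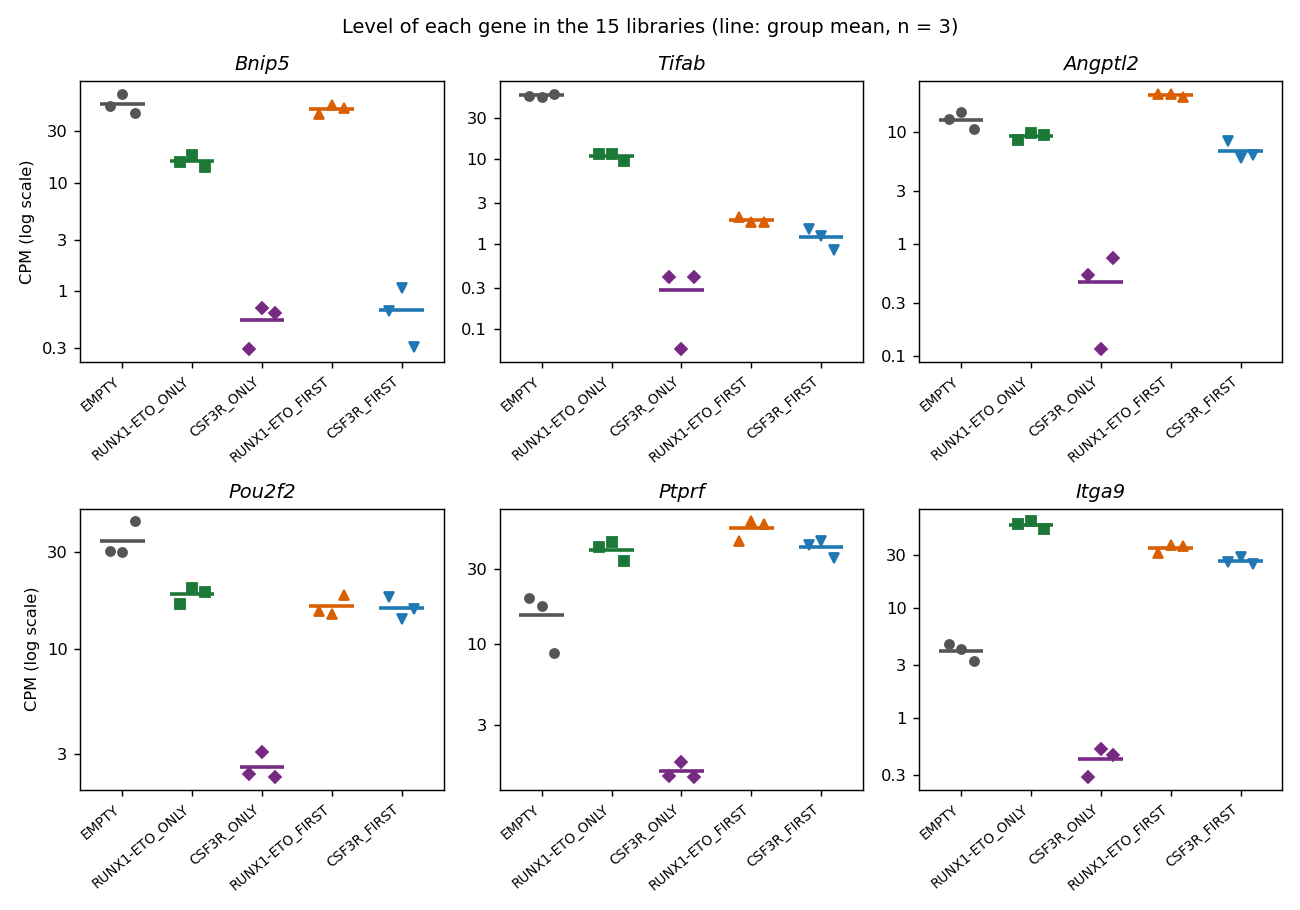
Level of each gene in CPM (vertical log axis, with its own range in each panel) in the 15 libraries by group; points are libraries, in replicate order, and lines are means of 3. CSF3R_ONLY is lowest in every panel, and it is joined at that level by CSF3R_FIRST for Bnip5 alone.

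In CSF3R_ONLY the 6 means lay between 0.522% and 10.4% of the EMPTY mean, Tifab lowest and Itga9 highest. The log2 differences ran from -7.55 (Tifab) through -6.63 (Bnip5), -4.78 (Angptl2), -3.73 (Pou2f2) and -3.34 (Ptprf) to -3.24 (Itga9). All were lower by choice, while 13.2% of tested genes were called lower in that contrast. The rule states no threshold. Tifab ranked 3 and Itga9 65 among all falls, so 59 other genes had a fall at least as large as that of Itga9. Per kilobase of exon the EMPTY levels were 15.9 CPM for Tifab, 11.7 for Bnip5 and 4.17 for Pou2f2. Those of Angptl2, Ptprf and Itga9 were 2.05, 1.67 and 0.529 CPM. The 2 highest per length, Tifab and Bnip5, also had the 2 largest log2 falls of the 6. The EMPTY level is itself a term of that fall, so the 2 rankings are not independent and nothing is drawn from this.

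In the doubles the 6 genes took different courses. Bnip5 stood near its EMPTY level when the fusion came first and near its CSF3R_ONLY level when the receptor came first. Tifab stayed at 3.41% and 2.15% of EMPTY in the 2 orders. Angptl2 was above EMPTY with the fusion first and near 52.5% of it with the receptor first. Pou2f2 stood at 47.1% of EMPTY with the fusion first and 46.3% with the receptor first. Ptprf and Itga9 were above EMPTY in both doubles, as they were with the fusion alone.

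**Figure D2:**
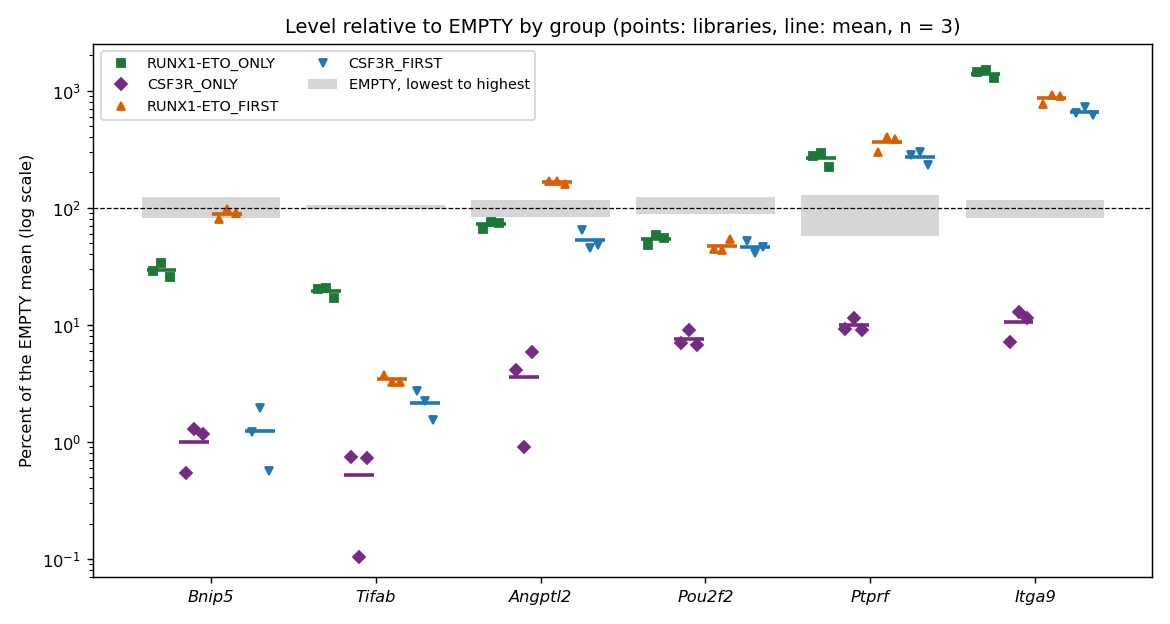
Level of each gene as a percent of its EMPTY mean (vertical log axis) in the other 4 groups; points are libraries, short lines means of 3, and grey bands the span of the EMPTY libraries. With the fusion first Bnip5 sits within the EMPTY band at 89.1%, whereas with the receptor first it sits at 1.24%.

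Bnip5 was read at 51.8, 66.8 and 44.3 CPM in the EMPTY libraries and at 0.292, 0.695 and 0.634 CPM in CSF3R_ONLY. RUNX1-ETO_FIRST libraries held 43.7, 52.4 and 49.1 CPM. CSF3R_FIRST libraries held 0.662, 1.06 and 0.303 CPM, which rested on 11, 18 and 5 counts. RUNX1-ETO_ONLY held 15.7, 18.3 and 13.9 CPM. The order of means was EMPTY (54.3 ± 11.5), RUNX1-ETO_FIRST (48.4 ± 4.37), RUNX1-ETO_ONLY (16.0 ± 2.22), CSF3R_FIRST (0.676 ± 0.380) and CSF3R_ONLY (0.540 ± 0.217; SD, n = 3 each). EMPTY overlapped RUNX1-ETO_FIRST, and CSF3R_FIRST overlapped CSF3R_ONLY, so Bnip5 was back at the control level in 1 double only. Bnip5 differed 70.5-fold between the doubles, a log2 difference of 6.14 (SE 0.266, 95% interval 5.57 to 6.71, adjusted p = 1.58e-09 by edgeR's quasi-likelihood test with Benjamini-Hochberg adjustment). Against RUNX1-ETO_ONLY it rose 3.03-fold where the receptor followed the fusion (log2 1.60, SE 0.176, adjusted p = 5.06e-06 by the same test). With the receptor first it lay 23.3-fold below RUNX1-ETO_ONLY (log2 -4.54, SE 0.280, adjusted p = 2.83e-09).

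Tifab was even in EMPTY, at 55.0, 53.8 and 58.0 CPM, and all but absent in CSF3R_ONLY, at 0.408, 0.0579 and 0.404 CPM, which rested on 7, 1 and 7 counts. The fusion alone left 11.3, 11.4 and 9.48 CPM, 19.3% of the EMPTY mean. RUNX1-ETO_FIRST held 2.08, 1.82 and 1.80 CPM and CSF3R_FIRST 1.504, 1.24 and 0.849 CPM. No library of one group overlapped the next in the order EMPTY, RUNX1-ETO_ONLY, RUNX1-ETO_FIRST, CSF3R_FIRST, CSF3R_ONLY. The doubles therefore stood at 3.41% and 2.15% of EMPTY, above CSF3R_ONLY and below the fusion alone. Compared with RUNX1-ETO_ONLY, Tifab was 5.64-fold lower with the fusion first (log2 -2.50, SE 0.186, adjusted p = 6.7e-08 by edgeR's quasi-likelihood test) and 8.91-fold lower with the receptor first (log2 -3.16, SE 0.204, adjusted p = 4.84e-09). Between the doubles the difference of 0.66 on the log2 scale (SE 0.254, interval 0.12 to 1.20) did not pass the threshold, with adjusted p = 0.0867 by the same test, although the 3 libraries of each group did not overlap. It passed with library sizes alone, at adjusted p = 0.0433.

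Angptl2 was read at 12.9, 15.1 and 10.6 CPM in EMPTY and at 0.525, 0.116 and 0.750 CPM in CSF3R_ONLY. RUNX1-ETO_FIRST had the highest level of any group, at 21.9, 21.7 and 20.6 CPM, which was 166% of EMPTY. CSF3R_FIRST held 8.24, 5.85 and 6.18 CPM and RUNX1-ETO_ONLY 8.52, 9.71 and 9.48 CPM. No neighbours overlapped in the order RUNX1-ETO_FIRST, EMPTY, RUNX1-ETO_ONLY, CSF3R_FIRST, CSF3R_ONLY, so both doubles lay well above the receptor alone. The doubles differed 3.16-fold (log2 1.66, SE 0.189, interval 1.26 to 2.06, adjusted p = 1.73e-05 by edgeR's quasi-likelihood test). Angptl2 rose 2.32-fold from RUNX1-ETO_ONLY to RUNX1-ETO_FIRST (log2 1.21, SE 0.181, adjusted p = 0.000113). CSF3R_FIRST against RUNX1-ETO_ONLY gave log2 -0.45 (SE 0.194, interval -0.86 to -0.04), which did not pass at adjusted p = 0.0682. That comparison passed under 4 other settings and without CSF3R_FIRST replicate 1, where adjusted p was 0.0309.

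Pou2f2 was read at 30.4, 30.1 and 42.8 CPM in EMPTY, the highest of them in the library that stood apart, and at 2.39, 3.07 and 2.31 CPM in CSF3R_ONLY. The other groups held 16.6, 20.1 and 19.0 CPM in RUNX1-ETO_ONLY, 15.4, 14.8 and 18.4 CPM in RUNX1-ETO_FIRST, and 17.99, 14.1 and 15.8 CPM in CSF3R_FIRST. Those 3 groups overlapped each other and all lay between EMPTY and CSF3R_ONLY. The doubles differed by 0.02 on the log2 scale (SE 0.153, interval -0.30 to 0.35, adjusted p = 0.938 by edgeR's quasi-likelihood test). Against RUNX1-ETO_ONLY the differences were -0.20 (interval -0.52 to 0.12, adjusted p = 0.384) for RUNX1-ETO_FIRST and -0.22 (interval -0.54 to 0.10, adjusted p = 0.246) for CSF3R_FIRST. No difference among the 3 groups that carry the fusion was past the threshold, within the widths of these intervals. With library sizes alone the last of these passed, at -0.44 and adjusted p = 0.0142.

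Ptprf was read at 19.7, 17.5 and 8.70 CPM in EMPTY, the lowest in replicate 3, and at 1.40, 1.74 and 1.38 CPM in CSF3R_ONLY. RUNX1-ETO_ONLY held 42.1, 44.8 and 34.0 CPM, RUNX1-ETO_FIRST 45.4, 61.1 and 58.8 CPM, and CSF3R_FIRST 43.4, 46.1 and 35.5 CPM. Every library with the fusion, alone or with the receptor, lay above every EMPTY library. The means of these groups were 264%, 361% and 273% of EMPTY, or 214%, 292% and 225% without EMPTY replicate 3. Between the doubles the log2 difference was 0.40 (SE 0.206, interval -0.04 to 0.84, adjusted p = 0.201 by edgeR's quasi-likelihood test). RUNX1-ETO_FIRST differed from RUNX1-ETO_ONLY by 0.45 (SE 0.205, interval 0.01 to 0.89, adjusted p = 0.124), with no overlap of libraries, and CSF3R_FIRST by 0.05 (SE 0.207, interval -0.39 to 0.49, adjusted p = 0.868). The first and second of these passed without the 4 libraries low in long transcripts, at 0.40 (adjusted p = 6.77e-05) and 0.46 (adjusted p = 4.31e-06), and the last changed sign with library sizes alone, at -0.17.

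Itga9 was low in EMPTY, at 4.68, 4.22 and 3.30 CPM, and lower still in CSF3R_ONLY, at 0.292, 0.521 and 0.461 CPM. It was highest with the fusion alone, at 58.2, 60.8 and 51.6 CPM. RUNX1-ETO_FIRST held 31.4, 37.3 and 36.6 CPM and CSF3R_FIRST 26.2, 29.2 and 25.1 CPM. No neighbours overlapped, and the doubles stood at 863% and 660.2% of EMPTY, between the fusion alone at 1398% and the control. Both doubles were below RUNX1-ETO_ONLY, 1.62-fold with the fusion first (log2 -0.70, SE 0.110, adjusted p = 0.000185 by edgeR's quasi-likelihood test) and 2.12-fold with the receptor first (log2 -1.08, SE 0.111, adjusted p = 1.01e-06). Itga9 was 1.31-fold higher in RUNX1-ETO_FIRST than in CSF3R_FIRST (log2 0.39, SE 0.112, interval 0.15 to 0.63, adjusted p = 0.0251). The difference no longer passed once RUNX1-ETO_FIRST replicate 2 (adjusted p = 0.103) or 3 (0.122) was left out, or CSF3R_FIRST replicate 1 (0.0787) or 3 (0.131).

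**Figure D3:**
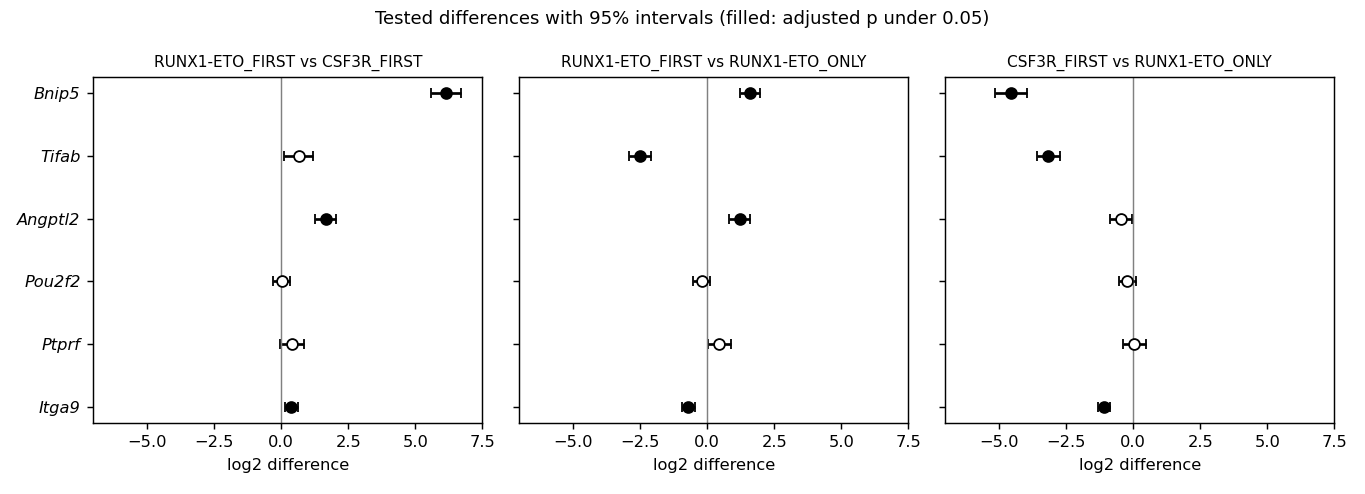
Log2 difference of each gene with its 95% interval (horizontal axis) in the 3 comparisons that share no library with the contrast used to choose the genes; filled points passed an adjusted p of 0.05. Bnip5 is at 6.14 between the doubles, and Pou2f2 is near 0 in all 3 panels.

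Counted together, 3 of the 6 genes were called between the doubles, all higher with the fusion first (Bnip5, Angptl2 and Itga9), where 18.3% of all tested genes were called, 7.22% higher and 11.1% lower. Of the 6, 4 were called when the receptor followed the fusion, Bnip5 and Angptl2 rising and Tifab and Itga9 falling, beside 26.3% of all genes, 16.0% higher and 10.3% lower. In CSF3R_FIRST against RUNX1-ETO_ONLY 3 were called, Bnip5, Tifab and Itga9, all lower, beside 48.2% of all genes, 25.0% higher and 23.2% lower. The medians of the 6 log2 differences were 0.53, 0.13 and -0.77, and those of all genes 0.00, -0.02 and -0.03. With 6 genes, shares of 3 or 4 are a description. The 3 comparisons share groups with each other and are not independent. The scaling moved the counts of all genes called higher and lower: they were 948 and 1459 between the doubles, 2097 and 1357 when the receptor followed the fusion, and 3276 and 3048 for CSF3R_FIRST against RUNX1-ETO_ONLY, and became 1842 and 1131, 1668 and 2700, and 2397 and 5284 with library sizes alone. That scaling shifted the median of all genes to 0.10, -0.14 and -0.25.

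Compared with each receptor group as a description, CSF3R_FIRST lay above CSF3R_ONLY by log2 5.96 for Itga9 (SE 0.191), 4.78 for Ptprf (SE 0.290), 3.84 for Angptl2 (SE 0.304), 2.62 for Pou2f2 (SE 0.186) and 2.02 for Tifab (SE 0.374). For those 5 genes every CSF3R_FIRST library exceeded every CSF3R_ONLY library. Bnip5 was the exception, at 0.32 (SE 0.483) with overlapping libraries. RUNX1-ETO_FIRST lay above CSF3R_ONLY for all 6, from 2.64 for Pou2f2 to 6.46 for Bnip5. These comparisons share the CSF3R_ONLY libraries with the choice of the genes.

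Across the 15 libraries the log2 levels of Ptprf and Itga9 ran closest among the 6 (Pearson r = 0.96, a description), and those of Tifab and Itga9 were least alike (r = 0.29). These libraries include EMPTY and CSF3R_ONLY, so the fall by which the genes were chosen enters every r given here. Over the same libraries, which fall into 5 groups, the named genes whose log2 levels ran closest to each were as follows. Bnip5 was most like Ccnd2, which encodes cyclin D2 (r = 0.93), Met, the receptor for hepatocyte growth factor (0.92), and Trmt1, a tRNA methyltransferase (0.92). The cyclin stood at 59.6 CPM in RUNX1-ETO_FIRST and 15.1 CPM in CSF3R_FIRST against 160 CPM in EMPTY, and Met at 42.6 and 11.6 CPM against 34.3 CPM. Tifab was most like Cnn3 (0.97), Nmnat3 (0.95) and Pdcd4 (0.94). Angptl2 was most like Elk3 (0.95), Irf8 (0.93) and Ldlrad4 (0.93), and Irf8, a monocyte and dendritic cell transcription factor, had 9.96 CPM in EMPTY, 0.928 in CSF3R_ONLY, 18.5 in RUNX1-ETO_FIRST and 7.61 in CSF3R_FIRST. Pou2f2 was most like Snap47 (0.96), Steap3 (0.94) and Ubfd1 (0.94). Ptprf was most like Etv4 (0.98), Tns1 (0.97) and Nlgn2 (0.97), and Itga9 like Sox12, Hmga2 and Zdhhc8 (0.99 each). Hmga2, a chromatin protein of embryonic and stem cells, had 45.7 CPM in EMPTY, 15.8 in CSF3R_ONLY, 120 in RUNX1-ETO_FIRST and 122 in CSF3R_FIRST.

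Genes known to work with or to be related to the 6 were listed in 8 groups, of which 92 genes were tested. The lists were chosen with earlier results of these data known, so their shares beside those of all genes are a description. In CSF3R_ONLY against EMPTY 34 of the 92 rose and 12 fell, 50% beside 33.1% of all genes (19.9% higher and 13.2% lower; 2617 and 1730 genes, or 2247 and 2333 with library sizes alone). Between the doubles 8 were higher and 21 lower with the fusion first, 31.5% beside 18.3% of all genes. Those 29 calls became 45 with limma and 49 with the 4 libraries low in long transcripts left out, where genes called in all went from 2407 to 4269 and 4449. In RUNX1-ETO_FIRST against RUNX1-ETO_ONLY 34 rose and 8 fell, 45.7% beside 26.3%, and in CSF3R_FIRST against RUNX1-ETO_ONLY 45 were higher and 12 lower, 62.0% beside 48.2%. Calls per list depended on the setting: with all replicates or without those 4 libraries, 40 list counts moved by over 1.5 times and 216 did not. All calls in these lists are edgeR's quasi-likelihood tests with adjustment over all genes. For each list below, calls in CSF3R_ONLY against EMPTY and between the doubles stand beside the same 33.1% and 18.3% of all genes.

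Of 21 tested genes of TIFA and TRAF6 signalling, the branch that TIFAB restrains, 6 rose and 1 fell in CSF3R_ONLY against EMPTY (median log2 0.15, all genes 0.00). These 7 calls of 21 were near the share of all genes called there, 33.1% (19.9% higher and 13.2% lower). The gene that fell was Tifa itself, the adaptor that TIFAB resembles, from 11.9 ± 1.74 to 5.43 ± 0.559 CPM (SD, n = 3; log2 -1.13, adjusted p = 2.92e-05 by edgeR). The adaptor gene Myd88 rose from 51.5 ± 4.67 to 123 ± 3.03 CPM (log2 1.26) and Nfkbia, which encodes an NF-kB inhibitor, from 29.3 ± 5.12 to 54.0 ± 3.99 CPM (log2 0.88). Traf6 stood at 67.1 and 75.6 CPM and was not called. Between the doubles 3 of the 21 were called, beside 18.3% of all genes. All 3 were lower with the fusion first: Nfkbia (log2 -0.55), the kinase-like gene Irak2 (-0.47) and Myd88 (-0.30).

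The list for Pou2f2, of octamer factors and octamer-linked B cell genes, had 13 entries. Of these 4 passed the filter, among them Obi1, which encodes a ubiquitin ligase of the replication origin complex and does not belong to that class, though it is among the 92. Of the others, Pou2f1, Cd79b and Ighm, 1 fell in CSF3R_ONLY, Cd79b, named after its value was seen, from 3.19 to 0.0969 CPM. Its related factor Pou2f1 stood at 33.7 and 33.1 CPM in EMPTY and CSF3R_ONLY and was not called. Ighm, the immunoglobulin mu chain, was higher in RUNX1-ETO_FIRST than in CSF3R_FIRST (6.21 ± 0.582 against 3.21 ± 0.717 CPM, SD, n = 3; log2 0.95, adjusted p = 0.000839 by edgeR). B cells are the best known site of Pou2f2 expression. Of 9 B cell markers 2 reached 1 CPM in a group, Cd79b and Ighm, while Pax5 and Ms4a1 had no counts. Their summed level was 15.04 to 18.3 CPM in EMPTY, 12.6 to 14.0 in CSF3R_ONLY, 4.82 to 5.19 in RUNX1-ETO_ONLY, 6.06 to 7.15 with the fusion first and 3.37 to 4.13 with the receptor first, and its part in the Pou2f2 levels was not tested.

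The list of angiopoietin-like genes and receptors, which also held Angpt1 and Tie1, gave 9 tested genes, 3 higher and 2 lower in CSF3R_ONLY. Its median of 0.00 was the value of Tie1, which had no counts in EMPTY or CSF3R_ONLY. The 2 lower were the only other angiopoietin-like genes tested, so they fell as Angptl2 did. Angptl4 went from 19.1 ± 1.97 to 10.3 ± 1.20 CPM (SD, n = 3; log2 -0.89) and Angptl6 from 2.31 to 1.06 CPM (log2 -1.11). The 3 higher were receptor genes: Pirb rose from 3.30 ± 1.09 to 141 ± 5.94 CPM (SD, n = 3; log2 5.40, adjusted p = 1.63e-12 by edgeR), Lilr4b by log2 3.81 and Lilrb4a by log2 3.15. These immunoglobulin-like receptors of myeloid cells, of which PIRB binds ANGPTL2, have near-identical relatives that the counting could not be shown to separate. Between the doubles Pirb was lower with the fusion first (76.1 ± 8.27 against 195 ± 12.6 CPM, log2 -1.36), the opposite direction to Angptl2 in the same comparison, and so was Lilrb4a (log2 -0.65). Angpt1, which encodes a ligand of the receptor TIE2, was higher with the fusion first (26.1 ± 2.83 against 16.6 ± 1.38 CPM, log2 0.65).

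Among 19 tested integrin chains 9 rose and 10 were not called in CSF3R_ONLY (median 0.33), where the Itga9 level was lowest. The beta 1 chain gene Itgb1, with which alpha 9 pairs, stood at 142 CPM in EMPTY and 136 CPM in CSF3R_ONLY and was not called (log2 -0.06). The leukocyte beta 2 chain gene Itgb2 rose from 156 ± 11.9 to 439 ± 1.90 CPM (SD, n = 3; log2 1.49, adjusted p = 6.72e-11 by edgeR), the platelet chain gene Itga2b by log2 1.67 and Itgb2l by log2 2.61. Between the doubles 2 chains were higher and 9 lower with the fusion first (median -0.29). Those named by rule were Itgb2l (log2 -1.13), Itgax (-1.11) and Itgam (-1.02), the last read at 10.6 ± 1.44 against 21.5 ± 2.60 CPM. Of 9 tested ligands of the alpha 9 beta 1 integrin, 4 rose and 3 fell in CSF3R_ONLY (median 0.05). Adam8 rose by log2 2.11 and Adam9 by log2 1.21, both membrane proteases, while Spp1, which encodes osteopontin, fell by 0.86 on the log2 scale. Between the doubles Spp1 was higher with the fusion first (13.1 ± 1.10 against 6.34 ± 0.187 CPM, log2 1.04), and Adam8 (-0.57) and Emilin1 (-0.28) were lower.

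Of 8 tested receptor tyrosine phosphatases related to Ptprf, 2 rose and 2 fell in CSF3R_ONLY (median -0.10). The 2 that fell were below the level set for naming. Ptprn went from 1.38 to 0.174 CPM (log2 -2.94), and Ptprm from 0.867 CPM to no counts. Ptprc, which encodes the leukocyte antigen CD45, rose from 151 ± 33.5 to 317 ± 4.64 CPM (SD, n = 3; log2 1.07) and Ptprj by log2 0.79. The close relative Ptprs stood at 134 CPM in EMPTY and 107 CPM in CSF3R_ONLY and was not called. Among 8 tested partners of LAR-type phosphatases 4 rose and 1 fell (median 0.72). Ppfibp1 and Ppfia3, of the liprin family of scaffolds, rose by log2 1.79 and 1.37, and Sdc1, a heparan sulphate proteoglycan of the kind LAR binds, fell by 1.65 on the log2 scale. Between the doubles 1 phosphatase was higher and 1 LAR partner lower with the fusion first, and 2 LAR partners were called with RLE size factors, DESeq2 or limma.

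The BCL2 family and BNIP genes, related to Bnip5 by name, gave 16 tested genes, 6 higher and 2 lower in CSF3R_ONLY (median 0.14). Bmf, a promoter of cell death, rose by log2 1.87, the survival gene Mcl1 by log2 0.85, and the survival gene Bcl2 fell by 0.95 on the log2 scale. Between the doubles 2 were lower with the fusion first, Mcl1 (-0.27) and Bnip2 (-0.20). Both differences were small beside that of Bnip5.

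**Figure D4:**
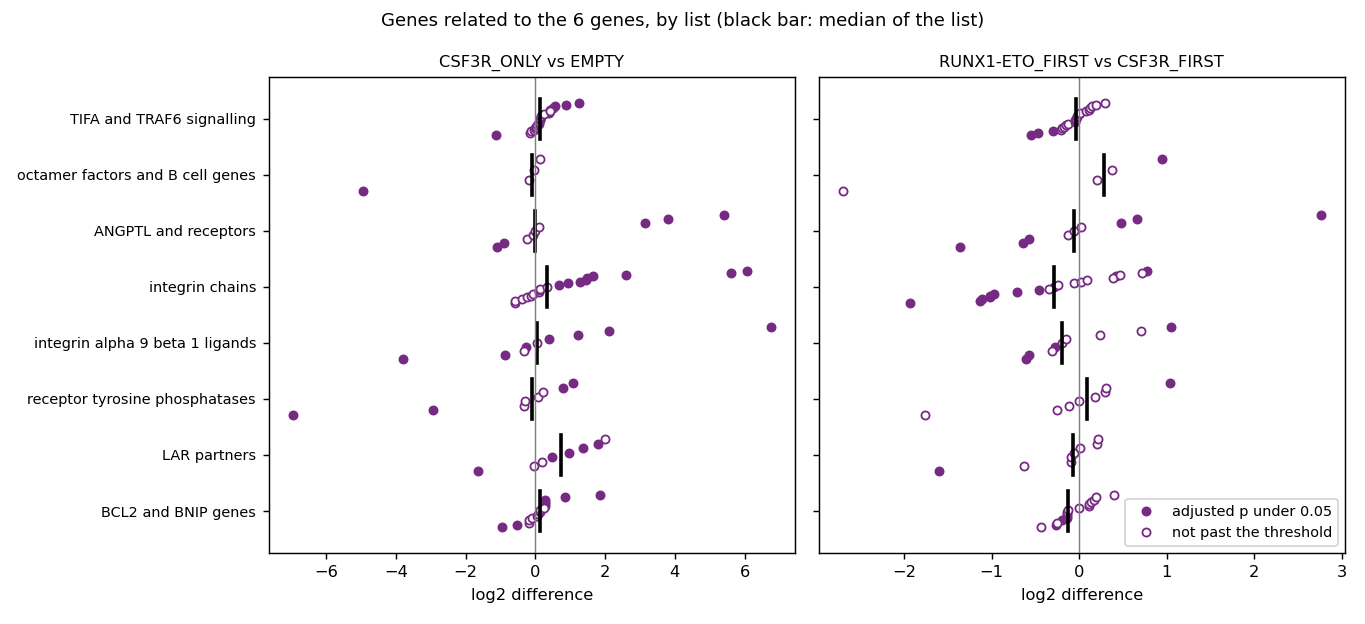
Log2 difference (horizontal axis) of each tested gene of the 8 lists in CSF3R_ONLY against EMPTY (left) and RUNX1-ETO_FIRST against CSF3R_FIRST (right); filled points passed an adjusted p of 0.05 and black bars are list medians. Of 19 integrin chains 9 rose on the left, while 9 were lower and 2 higher on the right; points beyond 6 on the left belong to genes with no counts in one group, whose fitted value depends on the prior count.

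Marker genes moved with the groups. The 11 haematopoietic and myeloid markers, most of their level from Mpo, summed to 46091 to 52099 CPM in EMPTY. The sum was 31107 to 31380 in CSF3R_ONLY and 20178 to 21339 in RUNX1-ETO_ONLY. In the doubles it was 16200 to 17997 with the fusion first and 16441 to 17665 with the receptor first. Only Mpo (from 45076 to 25625 CPM) and Elane (from 1919 to 1445 CPM) were lower in CSF3R_ONLY than in EMPTY. The other markers of this list were higher there, such as Cd33 (from 82.0 to 328 CPM). All 7 mast cell markers reached 1 CPM, and their summed level was 1163 to 1637 CPM in EMPTY, 2402 to 2490 in CSF3R_ONLY, 10087 to 11113 in RUNX1-ETO_ONLY, then 12044 to 15187 in RUNX1-ETO_FIRST. CSF3R_FIRST was highest, at 21658 to 26436 CPM. Most of this sum came from Cpa3. Kit instead was highest in EMPTY, at 331 CPM. It stood at 187 in RUNX1-ETO_ONLY, 86.2 in CSF3R_ONLY, 119 in RUNX1-ETO_FIRST and 219 in CSF3R_FIRST. Like the mast cell sum, Ptprf and Itga9 were higher in the 3 fusion groups than in EMPTY and CSF3R_ONLY. Unlike the sum, both were lower in CSF3R_ONLY than in EMPTY. Among the fusion groups Itga9 was lowest in CSF3R_FIRST (26.9 CPM), where the sum was highest. Tifab and Pou2f2 were lower in the 3 fusion groups than in EMPTY. The part of mast cell genes in the levels of the 6 genes was not tested. In bulk RNA fewer cells of a type and less RNA per cell cannot be told apart. Of 7 endothelial markers 3 reached 1 CPM, Pecam1, Tie1 and Vwf, while Kdr, Tek and Emcn had no counts, and their sum was 271 to 292 CPM in EMPTY and 792 to 813 CPM in CSF3R_FIRST. Of 7 stromal markers Pdgfrb and Col1a1 reached 1 CPM, and Col1a2, Col3a1, Dcn and Lum had no counts. Cdh1 was the 1 epithelial marker of 6, Lck the 1 T and NK cell marker of 8, and 4 of 6 erythroid markers (Hba-a1, Hbb-bs, Klf1 and Epor) reached 1 CPM. In CSF3R_ONLY, where the 6 genes were lowest, the erythroid sum was 12.5 to 15.9 CPM against 1.32 to 2.64 CPM in EMPTY. The epithelial sum was 11.4 to 12.4 CPM against 0.780 to 1.05 CPM, while Krt8, Krt5 and Cldn4 had no counts. CSF3R_FIRST, where Ptprf and Itga9 were above EMPTY, had sums of 12.2 to 14.3 and 7.03 to 8.97 CPM. RUNX1-ETO_FIRST had 6.15 to 8.47 and 2.92 to 4.45 CPM, and RUNX1-ETO_ONLY 3.21 to 4.40 and 0.210 to 0.510 CPM. The part of these markers in the levels of the 6 genes was not tested.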

How the data were processed

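mRNA of 15 libraries, 3 in each of 5 groups, was measured by strand-specific sequencing, per the labels. The authors deposited raw counts per gene symbol, 1 column per library. Per the submitters' processing notes, Trimmomatic, STAR, DESeq2 and the build mm10 were used, without versions or roles. Not given in the sources used here were the counting program, the annotation and the strand setting. The 1 entry naming no gene, 0.0179% to 0.0305% of a library, was left out.

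All libraries entered a single edgeR 4.0.16 fit (R 4.3.3; robust quasi-likelihood F test, default filter, TMM scaling) with a mean for each of the 5 groups, which left 10 residual degrees of freedom. Tests were two-sided, adjusted by Benjamini and Hochberg over 13123 genes at 0.05. The fit was also run on counts simulated from its own spread. Those counts held no deviation linked to exon length, so that run does not bear on the libraries that stood apart. The members and gene lists were chosen with earlier results of these data known. The 6 genes were therefore tested only in the 3 comparisons without EMPTY and CSF3R_ONLY. Named partner genes had up to 3 of the largest calls per list and comparison at a mean log2 CPM of at least 1 (prior count 2). Genes of like pattern were the 3 with the highest Pearson r per member at a mean log2 CPM of at least 3, leaving out unnamed gene models. Alternatives were library sizes alone, RLE size factors, DESeq2 1.42.0, limma 3.58.1 with sample weights, no filter, fewer groups, a replicate block and left-out libraries.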

Additional observations from a re-analysis of the deposited data

Results flagged for a closer look

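The same addition went with opposite directions in different backgrounds for several of the 6 genes, with every library of one group on one side. The difference between the 2 effects was not tested. For the receptor, the effect in control cells is the contrast by which the genes were chosen. For the fusion, both effects use libraries of that choice, and the effect in receptor cells starts from the group in which the genes were chosen for being low.

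Adding the receptor to control cells and adding it to cells with the fusion gave log2 -6.63 and 1.60 for Bnip5, -4.78 and 1.21 for Angptl2, and -3.34 and 0.45 for Ptprf. The 0.45 of Ptprf did not pass the threshold (adjusted p = 0.124 by edgeR), whereas the 1.60 and 1.21 did. Adding the fusion to control cells and adding it to cells with the receptor gave -2.37 and 2.02 for Tifab, -0.48 and 3.84 for Angptl2, and -0.89 and 2.62 for Pou2f2.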

How the results depend on the processing

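Over 14 alternatives Bnip5 between the doubles stayed at log2 5.77 to 6.62, past the threshold in 14 of 14. Of the member results without a library left out, 130 kept their direction and side of the threshold, 12 newly passed it and 2 reversed. Levels as a percent of EMPTY moved by less than the SD of the ratio, which takes in the spread of EMPTY too; without EMPTY replicate 3 the Ptprf levels in the 3 fusion groups moved by more than the SD of their own group. The reversed ones were near 0: Ptprf in CSF3R_FIRST against RUNX1-ETO_ONLY at -0.17 with library sizes alone, and Pou2f2 between the doubles at -0.000401 without a filter. The cause was not tested.

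Newly past the threshold were, with library sizes alone, Tifab between the doubles (0.76), and Angptl2 (-0.67) and Pou2f2 (-0.44) in CSF3R_FIRST against RUNX1-ETO_ONLY. In the latter comparison Angptl2 also passed with DESeq2 (-0.42), limma (-0.46) and only the groups compared (-0.44). Ptprf passed between the doubles with limma (0.42), only the groups compared (0.42) and with the 4 libraries low in long transcripts left out (0.40), and from RUNX1-ETO_ONLY to RUNX1-ETO_FIRST at 0.46, 0.45 and 0.46. Between the doubles genes called went from 2407 to 4269 with limma and 4449 with those 4 libraries left out, and listed partner genes from 29 to 45 and 49.

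Leaving out 1 library at a time gave 0.31 to 0.46 for Itga9 between the doubles, -0.10 to 0.12 for Pou2f2 there, and -0.061 to 0.17 for Ptprf and -0.62 to -0.35 for Angptl2 in CSF3R_FIRST against RUNX1-ETO_ONLY.

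Among the 3 fusion groups same-numbered libraries had deviations correlated at r -0.161 to 0.250 (median 0.072, 9 pairs), and over all 5 groups at -0.243 to 0.455, so the numbers were not taken to pair them. EMPTY replicate 3 was closer to RUNX1-ETO_FIRST replicate 1 (0.376) than to replicate 3 (-0.164). With a replicate block 2541 genes were called between the doubles, Bnip5 stood at 6.16, Itga9 at 0.39 (adjusted p = 0.0159), and no member call changed. Counts were fewest for Tifab in CSF3R_ONLY, at 1 to 7 per library. In the groups used for tests they were fewest for Bnip5 in CSF3R_FIRST, at 5 to 18 per library.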
